A study of Mus musculus with 16 samples.

Results

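The genes examined here are 29 mouse genes that build cholesterol or control its synthesis, chosen by symbol as known genes of the pathway, out of 45706 gene identifiers in the counts table. All 29 were found and all passed the filter on low counts. They comprise 8 enzymes of the mevalonate and isoprenoid steps, 11 enzymes of the squalene and sterol steps, 5 genes of SREBP control and 5 genes of sterol transport, storage and the liver X receptors (LXR).

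RNA-seq was carried out on ear skin of 8 male C57Bl/6J mice, each biopsied once at 23.8 to 24.4 months (labelled young, called here the first biopsy) and once at 29.0 to 30.1 months (labelled old, the second biopsy), 5.0 to 6.3 months later. The longitudinal comparison asks which transcripts differ between these ages within one animal. The labels name no transgene or treatment, and no younger animals entered this comparison. The second biopsy was taken from the other ear, so ageing and the side of the ear cannot be told apart.

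Cholesterol is assembled from acetyl-CoA through mevalonate and isoprenoid units to squalene, which is folded into lanosterol and trimmed to cholesterol. The transcription factor encoded by Srebf2 switches these enzymes on when it leaves the endoplasmic reticulum with its escort, the product of Scap, and the INSIG proteins hold it back when sterols are plentiful. In skin, keratinocytes use cholesterol for the lipids of the water barrier and sebaceous glands make sterols and esters for sebum, while LXR respond to oxidised sterols and favour export.

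Total gene counts were 27494852 to 35527197 (median 28877001) in the first and 22967222 to 36162431 (median 29138399) in the second biopsies. The keratinocyte genes Krt5 (mean 4485 CPM, reads per 1000000 gene reads) and Krt14 (mean 4365 CPM) were abundant in the first biopsies, as the label skin implies. Muscle, fat cell and cartilage genes were detected too. The libraries of mouse 29 second biopsy, mouse 50 second biopsy and mouse 43 first biopsy had the lowest median Spearman correlations with the other libraries (0.974, 0.971 and 0.982, against 0.983 to 0.992 for the rest). In bulk tissue, fewer cells of a type and less RNA per cell cannot be told apart.

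Promoter windows are shown for 4 genes that differ in the letters they hold and that the results return to. Hmgcs1 encodes HMG-CoA synthase and is the most abundant member, Mvk encodes mevalonate kinase, Srebf2 encodes the controlling factor, and Nr1h2 encodes LXR beta, the gene with the smallest p of the 29. Each window holds 250 bases before and 50 after a RefSeq start (GRCm38.p6) and is written 5′ to 3′ on the gene's strand. The windows lie at chr13:119690101-119690400 (plus strand) for Hmgcs1, chr5:114444019-114444318 (plus) for Mvk, chr15:82147019-82147318 (plus) for Srebf2 and chr7:44553916-44554215 (minus) for Nr1h2. Capitals mark 3 motifs on either strand, which may share bases. They are an SRE-like element (TCACNCCAC, the site type SREBP binds), the CCAAT box (CCAAT, bound by NF-Y) and the GC box (GGGCGG, bound by Sp factors).
Hmgcs1: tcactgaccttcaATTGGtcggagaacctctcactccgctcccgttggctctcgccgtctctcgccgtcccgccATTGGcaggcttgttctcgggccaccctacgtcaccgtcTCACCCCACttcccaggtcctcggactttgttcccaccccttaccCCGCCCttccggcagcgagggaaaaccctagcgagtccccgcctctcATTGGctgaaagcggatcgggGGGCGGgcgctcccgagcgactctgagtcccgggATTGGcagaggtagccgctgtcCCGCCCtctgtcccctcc
Mvk: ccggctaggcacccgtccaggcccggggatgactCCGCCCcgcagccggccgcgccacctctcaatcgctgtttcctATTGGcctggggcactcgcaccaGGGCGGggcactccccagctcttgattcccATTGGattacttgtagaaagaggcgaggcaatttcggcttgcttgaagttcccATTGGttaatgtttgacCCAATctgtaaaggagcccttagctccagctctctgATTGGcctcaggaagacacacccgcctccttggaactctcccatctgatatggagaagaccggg
Srebf2: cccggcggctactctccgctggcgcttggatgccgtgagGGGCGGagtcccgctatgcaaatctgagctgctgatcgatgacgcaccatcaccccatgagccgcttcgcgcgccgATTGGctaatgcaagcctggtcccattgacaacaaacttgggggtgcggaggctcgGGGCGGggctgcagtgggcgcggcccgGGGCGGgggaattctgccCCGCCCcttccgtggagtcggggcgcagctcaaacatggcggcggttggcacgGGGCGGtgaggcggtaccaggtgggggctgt
Nr1h2: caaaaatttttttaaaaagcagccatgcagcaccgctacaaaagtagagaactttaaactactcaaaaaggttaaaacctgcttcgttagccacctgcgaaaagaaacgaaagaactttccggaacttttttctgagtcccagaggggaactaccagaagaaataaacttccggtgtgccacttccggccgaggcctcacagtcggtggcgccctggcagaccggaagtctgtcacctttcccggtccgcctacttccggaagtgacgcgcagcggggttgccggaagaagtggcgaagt

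The Hmgcs1 window held 1 SRE-like element, whose first base lies at position -137 from the start, with 4 CCAAT and 3 GC boxes. The Mvk window held 5 CCAAT boxes and 2 GC boxes, the Srebf2 window 1 CCAAT and 5 GC boxes, and the Nr1h2 window none of these letters. Over the 25 members with an entry (34 windows), CCAAT was found in 22 windows (64.7%, against 37.4% of all 32851 windows) and the GC box in 25 (73.5%, against 35.7%). The SRE-like letters were in 1 window (2.94%, against 1.24%). These shares describe the letters in the windows, and a window without a match says only that the letters are not there. Fdft1, Fdps, Sqle and Stard4 had no entry.

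To describe how strongly each gene is expressed, levels between genes were compared per length as RPKM (CPM per kilobase of exon). The length is that of all annotated exons of a gene joined, including bases shared with other genes. On this scale Hmgcs1 stood highest, at a mean of 155.8 ± 20.2 RPKM (SD, 16 libraries), above the next gene in all 16 libraries. The methylsterol oxidase Msmo1 (68.8 ± 15.1 RPKM) and the sterol demethylase Cyp51 (68.6 ± 10.8 RPKM) followed and did not differ beyond their spread. Srebf1, which encodes the SREBP form that favours fatty acid genes, was the most abundant control gene at 53.7 ± 7.78 RPKM, while Srebf2 lay at 28.5 ± 4.13 RPKM. The thiolase gene Acat2 (50.9 ± 9.93 RPKM) has a near-identical neighbour, Acat3. Reads that match both may have been left uncounted or assigned to either, so the level of Acat2 may be too low. At the low end were Fdps (6.37 ± 0.930 RPKM), Ggps1 (4.51 ± 0.339 RPKM), the sterol reductase Tm7sf2 (4.48 ± 0.663 RPKM) and Nr1h3, the gene of LXR alpha (2.57 ± 0.838 RPKM). Of 28 neighbouring pairs in this order, 21 differed by no more than the larger SD of the pair.

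**Figure D1:**
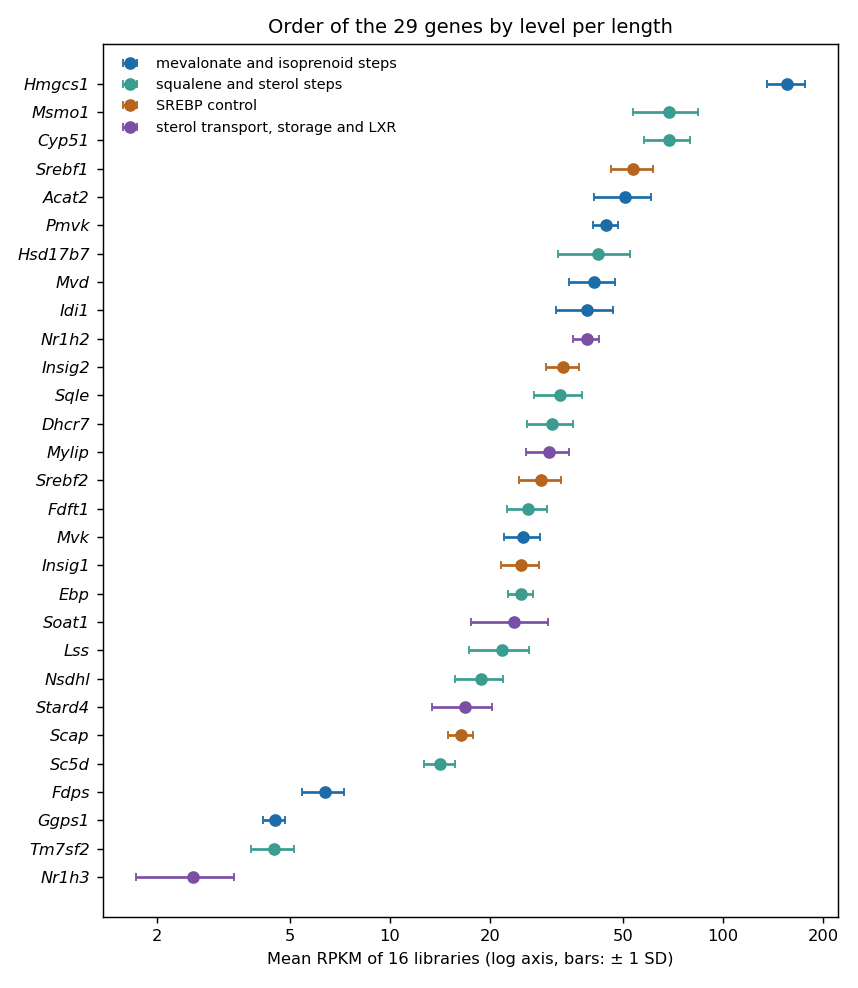
Mean level of the 29 genes as RPKM on a log axis, with bars of 1 SD over 16 libraries and colours for the 4 roles. Hmgcs1 at 155.8 RPKM stands apart at the top and Nr1h3 at 2.57 RPKM at the bottom, and most neighbours overlap within 1 SD.

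The kit used does not mark strand, so reads of exons that 2 genes share cannot be assigned from strand. Fdps shares 26.7% of its exon bases with the same-strand gene Gm43738, Tm7sf2 12.1% with Vps51, and Fdft1, the squalene synthase gene, 18.3% with the opposite-strand protease gene Ctsb. Scap shares 13.2% with an unclassified opposite-strand transcript, Hmgcs1 12.1% and Idi1 9.2% with opposite-strand transcripts that the table does not count. For the other members the shared part was at most 5.4% of the exon bases. How reads of shared exons were counted is not given in the sources used here. If they were left out, the RPKM of genes such as Fdps and Tm7sf2 would be too low.

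Comparing the second with the first biopsy within mice, no member passed an edgeR adjusted p of 0.05 (0 of 29), nor did any gene of the table (0 of 21526, 0.0%). At an unadjusted p below 0.05, 1 member was higher at the second biopsy (Nr1h2), where 1047 of all genes (4.86%) were, and 2 were lower (Sc5d and Stard4), where 1546 (7.18%) were. Both counts lie near the background shares. The number lower at this level was 0 without mouse 13, 29 or 50, 1 without mouse 14 or 21, and 4 without mouse 43, where Cyp51, Lss, Sqle and Stard4 made up the count. In the 5 mice other than 29, 43 and 50 it was 0 in either direction, Nr1h2 included, while edgeR called 21 of all genes there. DESeq2 called 240 genes at an adjusted p below 0.05 and none of the 29, with 0.0805 for Nr1h2 as the smallest. In simulated counts edgeR recovered 190 of 200 genes changed by 1 on the log2 scale (95%), and smaller changes were not simulated.

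The fitted log2 differences of the members lay between -0.27 and 0.22. They were below 0 for 21 of 29 members (72.4%) and for 18 of the 19 synthesis enzymes (94.7%), compared with 48.3% of all genes tested. The median was -0.08 for the members and -0.10 for the enzymes, against 0.01 for all genes. For the members it was -0.03 without mouse 29 or 50. The enzymes' differences are not independent of each other, as the values within mice below show, and the count therefore carries less than 19 separate observations. The enzyme median was -0.04 without mouse 29 (16 of 19 below 0) and also -0.04 without mouse 50 (17 of 19). Without mouse 43 it was -0.17 (18 of 19), and in the 5 mice other than 29, 43 and 50 it was -0.05 (16 of 19).

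**Figure D2:**
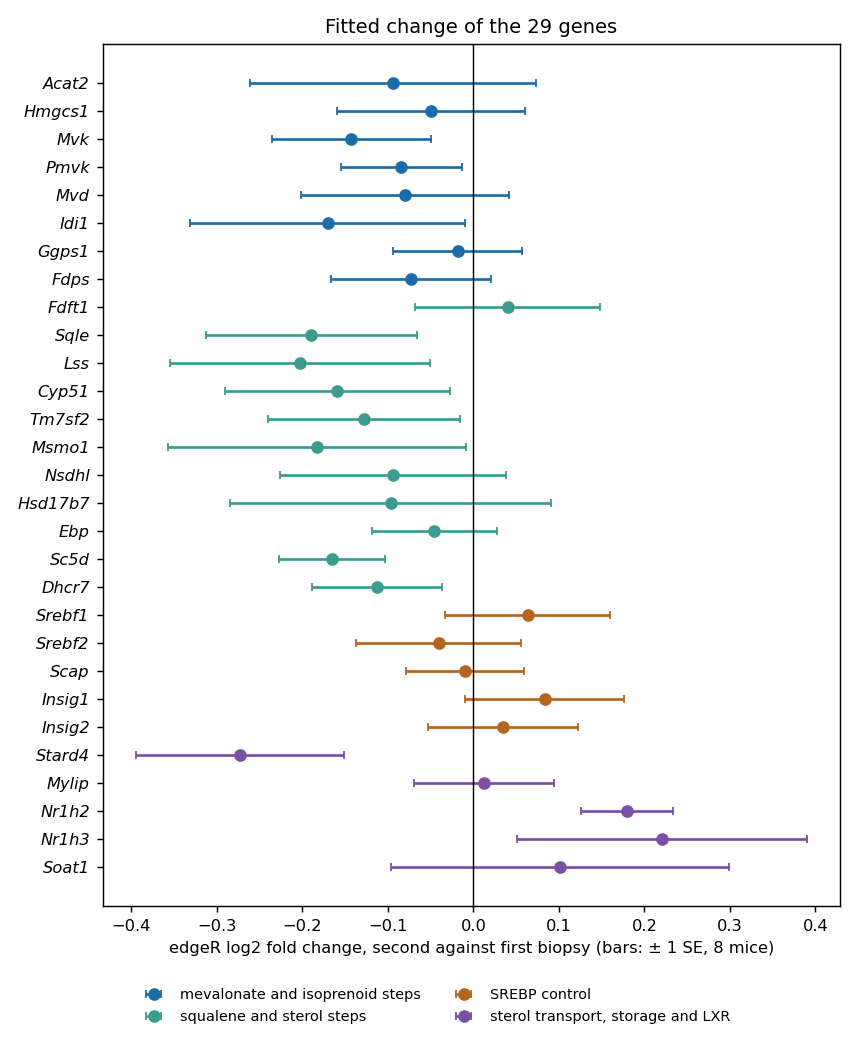
The edgeR log2 fold change of each of the 29 genes, second against first biopsy, with bars of 1 SE (8 mice) and colours by role. All enzymes but Fdft1 lie to the left of 0, while the control and LXR genes lie on both sides, and no gene passed the adjusted threshold.

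Among the 8 mevalonate and isoprenoid enzymes, all 8 fitted differences were below 0 and none passed the test at either level. Hmgcs1 (chr13:119690379-119708260), which makes HMG-CoA from acetoacetyl-CoA, ran from 633 to 838 CPM (median 729) in the first and from 492 to 870 CPM (median 695) in the second biopsies. The second biopsies thus spread further on both sides and overlapped the first throughout. Its log2 fold change was -0.05 ± 0.11 (SE, edgeR adjusted p = 0.873), with 3 of 8 mice higher, and from -0.12 without mouse 43 to 0.03 without mouse 50. Mvk (chr5:114444269-114460591), the kinase that phosphorylates mevalonate, ran from 63.9 to 75.1 CPM (median 71.1) at first and from 45.3 to 77.7 CPM (median 66.3) later. Its 2 lowest second biopsies were those of mice 29 (45.3 CPM) and 50 (53.3 CPM), and the other 6 lay within or close to the range of the first biopsies. The log2 fold change of Mvk was -0.14 ± 0.09 (edgeR adjusted p = 0.550), -0.06 without mouse 29 and -0.02 in the 5 mice other than 29, 43 and 50.

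The remaining 6 genes of this group had fitted log2 differences from -0.17 (Idi1, the isomerase of isopentenyl units) to -0.02 (Ggps1, whose product makes geranylgeranyl units for protein anchoring). That of Idi1 became -0.04 without mouse 29. The second biopsy of mouse 64 stood apart from the others in Ggps1, at 24.15 CPM. Acat2, which joins acetyl-CoA units, was 134 ± 27.2 CPM at first and 125 ± 24.1 CPM later (SD, n = 8). The phosphomevalonate kinase gene Pmvk was 78.4 ± 5.88 and 74.1 ± 6.86 CPM, and the decarboxylase gene Mvd 77.9 ± 9.02 and 74.6 ± 14.8 CPM. Fdps, the farnesyl unit synthase, was 27.2 ± 1.66 and 26.4 ± 5.45 CPM, subject to its overlap with Gm43738. Each of these differences was smaller than the SD of the change over the 8 mice.

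Of the 11 squalene and sterol enzymes, 10 had a fitted difference below 0 and 1, Sc5d, reached an unadjusted p below 0.05. Sc5d (chr9:42251595-42264256, minus strand), the desaturase of the late sterol ring, ran from 62.6 to 83.9 CPM (median 72.1) in the first and from 58.1 to 73.0 CPM (median 64.7) in the second biopsies. It was lower in 6 of 8 mice, mice 14 and 75 being the exceptions, and the groups overlapped. The log2 fold change was -0.17 ± 0.06 (edgeR adjusted p = 0.344), and exact permutation of the signs within mice gave a two-sided p of 0.0391, not adjusted over genes. Leaving out single mice gave differences of Sc5d from -0.19 to -0.14, but it did not reach an unadjusted p below 0.05 without mouse 13, 29, 43 or 50. In the 5 mice other than 29, 43 and 50 the difference was -0.08.

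Sqle (chr15:59315077-59331192), the epoxidase that commits squalene to sterols, ran from 159 to 225 CPM (median 186) at first and from 127 to 231 CPM (median 161) later. It was lower in 6 of 8 mice, and mouse 43 held both the lowest first and the highest second value. Its log2 fold change was -0.19 ± 0.12 (edgeR adjusted p = 0.551), -0.29 without mouse 43 and -0.10 without mouse 29. Dhcr7 (chr7:143823145-143848410), the reductase of the last step, ran from 151 to 220 CPM (median 187) and then from 131 to 226 CPM (median 170.0). Mouse 29 was highest at both biopsies for Dhcr7, although 17 of the 19 enzymes were lower at its second biopsy than at its first. Dhcr7 had a log2 fold change of -0.11 ± 0.08 (edgeR adjusted p = 0.563), and -0.06 without mouse 50.

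The lanosterol synthase gene Lss was 249 ± 37.9 CPM at first and 219.8 ± 54.5 CPM later (SD, n = 8), with a log2 fold change of -0.20 ± 0.15 and 4 of 8 mice lower. This became -0.10 without mouse 29 and -0.32 without mouse 43. Msmo1 was 447 ± 85.4 and 399 ± 99.4 CPM, and Cyp51 319 ± 42.3 and 287 ± 50.3 CPM. Their log2 fold changes of -0.18 and -0.16 became -0.07 and -0.08 without mouse 29, and -0.31 and -0.26 without mouse 43. Fdft1, the squalene synthase gene, was the exception in sign at 108 ± 11.3 and 112 ± 18.6 CPM, and its sign turned without mouse 43 or without mouse 75 (-0.02 in both cases). Hsd17b7, a sterol ketone reductase, varied most among the enzymes in the first biopsies, with a coefficient of variation of 25.2%. The reductase gene Tm7sf2, the dehydrogenase gene Nsdhl and the isomerase gene Ebp had log2 fold changes of -0.13, -0.09 and -0.05. Those of Tm7sf2 and Nsdhl became -0.04 and -0.001 without mouse 29, and that of Ebp 0.00 without mouse 13. Without mouse 43 the values of Tm7sf2, Nsdhl and Ebp were -0.19, -0.20 and -0.10. None of these differences exceeded the spread between mice in the edgeR test.

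**Figure D3:**
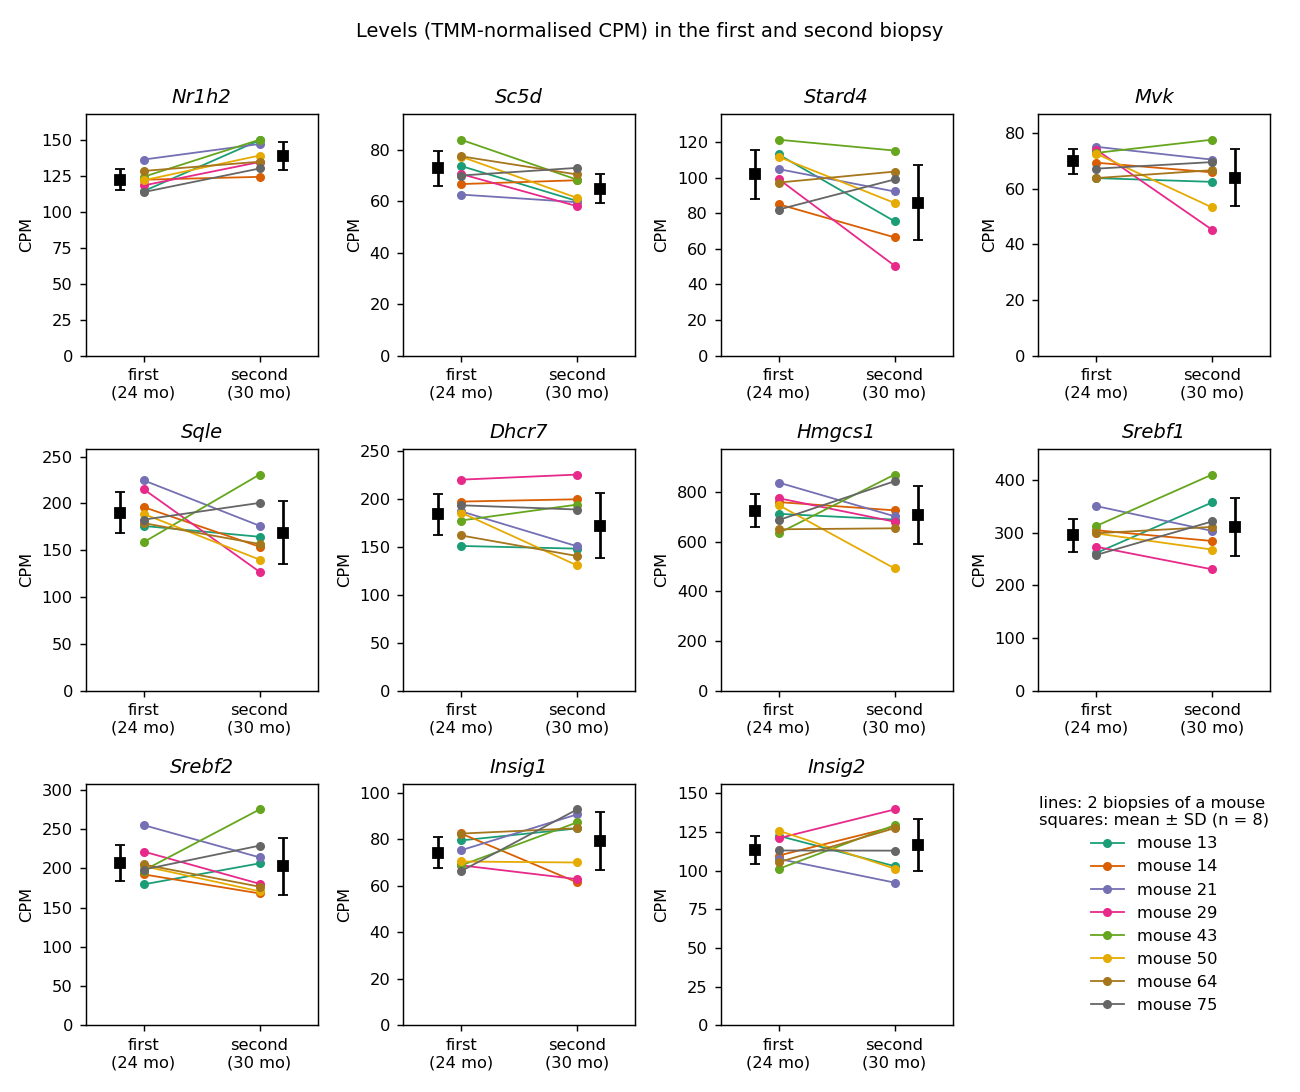
Levels of 11 genes as normalised CPM (linear axes from 0) in the first and second biopsy, with 1 coloured line per mouse and squares for the mean with 1 SD (n = 8). Nr1h2 is higher in 8 of 8 mice with overlapping groups, Sc5d and Stard4 are lower in 6 of 8, and the lines of Sqle, Hmgcs1 and Srebf2 cross.

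The 5 genes of SREBP control showed no shift in 1 direction, with a median log2 difference of 0.03 (range -0.04 to 0.08) and 3 of 5 above 0. Srebf2 (chr15:82147181-82205379) ran from 179.7 to 255 CPM (median 201) at first and from 168 to 275 CPM (median 194) later. It was higher in mice 13, 43 and 75 and lower in the other 5, and the groups overlapped. Its log2 fold change was -0.04 ± 0.10 (edgeR adjusted p = 0.883), from -0.11 without mouse 43 to 0.00 without mouse 29. Srebf1 (chr11:60199089-60222581, minus strand) ran from 257 to 350.4 CPM (median 299) and then from 230.2 to 410.1 CPM (median 307), with 4 of 8 mice higher. Srebf1 had a log2 fold change of 0.06 ± 0.10 (edgeR adjusted p = 0.806), 0.02 without mouse 13 or 43, 0.03 without mouse 75 and 0.11 without mouse 21 or 29.

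Insig1 (chr5:28071363-28078662), itself a target of the factor its product restrains, ran from 66.3 to 82.4 CPM (median 72.8) at first and from 61.5 to 92.8 CPM (median 84.7) later. Values were higher in 5 of 8 mice (log2 fold change 0.08 ± 0.09, edgeR adjusted p = 0.729), with 0.16 without mouse 14 and 0.03 without mouse 75. Insig2 (chr1:121304353-121332589, minus strand) ran from 101 to 126 CPM (median 111) and then from 92.3 to 139.5 CPM (median 120.2), and the log2 fold change was 0.03 ± 0.09 (edgeR adjusted p = 0.892), from -0.01 without mouse 43 to 0.09 without mouse 13. In both genes the second biopsies lay on either side of the first. Scap was 122 ± 8.28 CPM at first and 122 ± 12.7 CPM later (SD, n = 8).

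Nr1h2 (chr7:44549616-44553951, minus strand), the LXR form expressed in most tissues, ran from 114 to 136 CPM (median 122) in the first and from 124 to 150.0 CPM (median 137) in the second biopsies. It was the only member that moved one way in all 8 mice, by 0.02 (mouse 14) to 0.39 (mouse 13) on the log2 scale, although the groups overlapped. Of all genes tested, 596 (2.77%) moved one way in all 8 mice, against 1 of 29 members (3.45%). The log2 fold change was 0.18 ± 0.05 (edgeR adjusted p = 0.286), and the exact sign-flip permutation test gave a two-sided p of 0.00781, the smallest that 8 mice allow. Leaving out single mice kept the difference of Nr1h2 between 0.16 and 0.20. In the 5 mice other than 29, 43 and 50 it was also 0.16, although edgeR gave no unadjusted p below 0.05 there.

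Stard4 encodes a soluble carrier that moves sterol between membranes. It ran from 82.1 to 121 CPM (median 102) at first and from 50.5 to 115 CPM (median 89.0) later, lower in 6 of 8 mice with overlapping groups. The lowest value was the second biopsy of mouse 29 at 50.5 CPM. The log2 fold change was -0.27 ± 0.12 (edgeR adjusted p = 0.412), -0.17 without mouse 29 and -0.15 in the 5 mice other than 29, 43 and 50. The exact sign-flip permutation test gave a two-sided p of 0.0938 for Stard4. In edgeR it did not reach an unadjusted p below 0.05 without mouse 13, 14, 21, 29 or 50, with DESeq2 size factors or without the mouse term.

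Nr1h3, the LXR form of macrophages, fat and liver, was 5.81 ± 0.837 CPM at first and 7.09 ± 2.81 CPM later (SD, n = 8; 108 to 380 reads per library). Its highest second biopsies were those of mice 29 (13.1 CPM) and 50 (8.85 CPM), and its lowest that of mouse 43 (4.02 CPM). The log2 fold change of Nr1h3 was 0.22 ± 0.17 (edgeR adjusted p = 0.613), and 0.10 without mouse 29. Soat1, which esterifies cholesterol for storage, varied widely, from 107 to 284 CPM at first and from 166 to 335 CPM later. Mylip, an LXR target that marks lipoprotein receptors for degradation, was 96.0 ± 9.46 and 98.0 ± 18.6 CPM.

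The direction of the change between the biopsies differed from mouse to mouse. In mouse 29, 17 of the 19 enzymes were lower at the second biopsy, with a median change of -0.69 on the log2 scale, from -1.10 for Idi1 to 0.14 for Ggps1. All 19 were lower in mouse 50, with a median of -0.46. Mouse 43 went the other way, with 16 of 19 higher, a median of 0.46 and a largest change of 1.06 for Hsd17b7. The medians were -0.23 in mouse 21, -0.11 in mouse 14 and -0.09 in mouse 13, where 15, 15 and 14 of the 19 were lower. They were 0.10 in mouse 64 and 0.16 in mouse 75, where 14 and 16 were higher. The median change over all genes tested lay between -0.0213 (mouse 13) and 0.0078 (mouse 64).

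**Figure D4:**
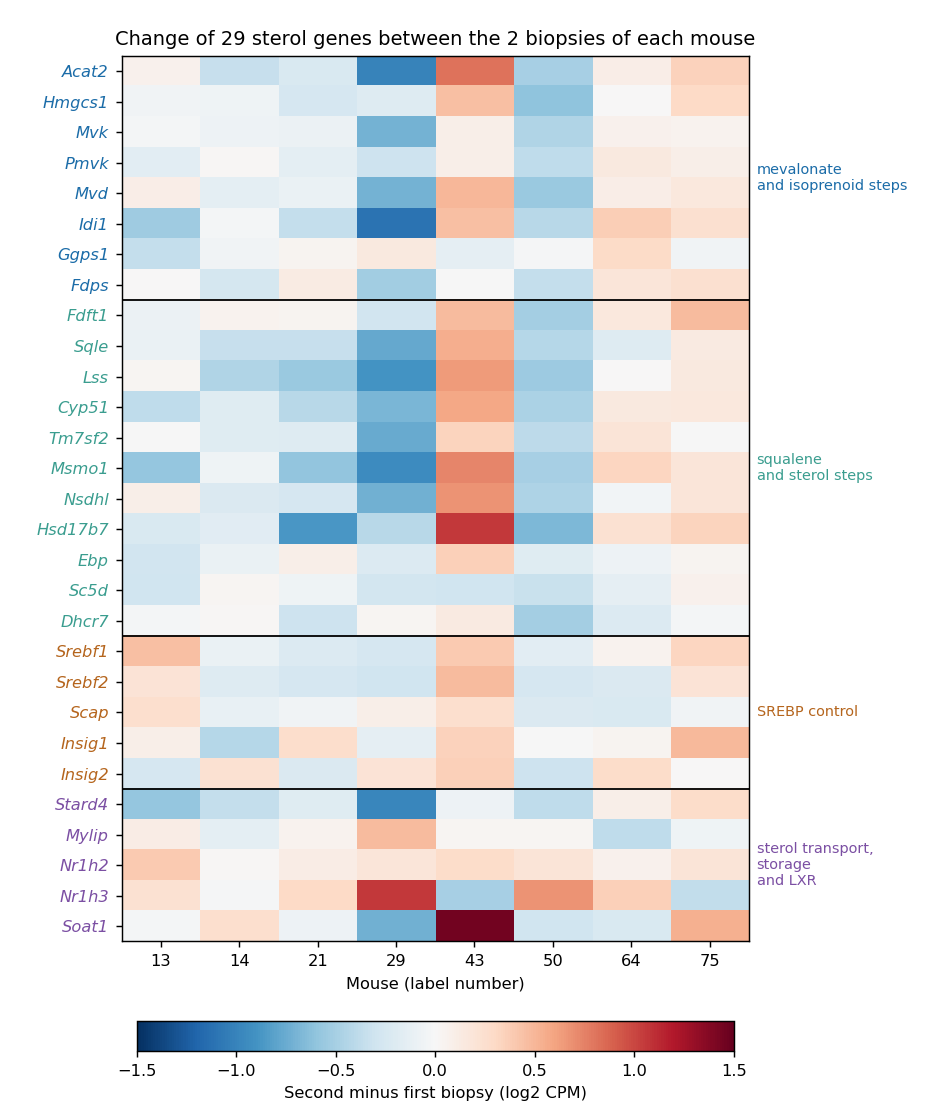
Change of each of the 29 genes (rows, by role) between the biopsies of each of 8 mice (columns), second minus first in log2 CPM, blue for lower and red for higher. Most enzyme rows are blue in mouse 29 (17 of 19) and all are in mouse 50, and 16 of 19 are red in mouse 43, whereas Nr1h2 is pale red throughout and Nr1h3 is reversed in these mice.

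Across the 8 mice, the changes of the 171 pairs of enzymes had a median Spearman correlation of 0.714, with 153 of 171 above 0 and a range from -0.619 to 1.0. Over all pairs of the 21526 genes tested the median was 0.0, with 48.9% above 0. This is a description, since the points share mice, libraries and scaling. Over the 5 mice other than 29, 43 and 50 the median was 0.5, with 145 of 171 above 0, against 0.0 and 47.7% over all pairs of genes. Sc5d, Ggps1 and Dhcr7 departed from the rest. In mouse 43 Sc5d was lower by 0.295 while 16 enzymes were higher, and in mouse 29 Ggps1 and Dhcr7 were the only enzymes not lower. Sc5d, the enzyme with an unadjusted p below 0.05, was thus not among those that moved together.

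The control genes followed these mice in part. In mouse 43 all 5 were higher, with Srebf2 at 0.48 and Srebf1 at 0.39 on the log2 scale, and in mouse 50 all 5 were lower. In mouse 29 Srebf2 (-0.30) and Srebf1 (-0.25) were lower, but Insig2 was higher by 0.21. Mouse 13 differed, with Srebf1 higher by 0.45 and Srebf2 by 0.20 while 14 enzymes were lower. So did mouse 64, with Srebf2 (-0.21) and Scap (-0.23) lower while 14 enzymes were higher. In the other mice Srebf2 had the sign of the enzyme median. The changes of Srebf2 fell into 2 separate sets, 3 mice between 0.20 and 0.48 and 5 between -0.30 and -0.20, so no pooled correlation with the enzymes is given.

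Soat1 and Nr1h3 went opposite ways in the same mice. Soat1 was higher by 1.45 in mouse 43 and lower in mouse 29 (-0.72), the direction of the enzymes. Against the enzyme median, it was higher by 0.25 in mouse 14 and lower in mouse 64 (-0.23). Nr1h3 was lower in mouse 43 (-0.50) and higher by 1.06 in mouse 29 and 0.67 in mouse 50. Stard4 was lower in mouse 29 (-0.97) and nearly level in mouse 43 (-0.07). Nr1h2 was higher by 0.19, 0.27 and 0.19 in mice 29, 43 and 50, close to its mean.

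Both biopsies contributed to these differences. Relative to the mean of all 16 libraries, the enzymes' median deviation was -0.41 (log2 CPM) in the second biopsy of mouse 29 and -0.35 in that of mouse 50, with 1 of 19 enzymes above its mean in each. The first biopsies of these mice were at 0.16 and 0.11. In mouse 43 the first biopsy was low (-0.16) and the second high (0.23). The remaining libraries lay between -0.13 and 0.24, the highest being the first biopsy of mouse 21.

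Within mice, markers of sebaceous glands mostly changed in the direction of the enzymes, but their fitted differences did not share the enzymes' sign. Of the 10 markers, 7 had a fitted difference above 0 (median 0.09), against 1 of the 19 enzymes (median -0.10). The summed level of the 10 markers, Soat1 included, was 1328 to 3325 CPM (median 2561) in the first and 1967 to 3920 CPM (median 2527) in the second biopsies, with none at 0. None of the 10 reached an unadjusted p below 0.05 in edgeR. Without Soat1, the median change of the other 9 had the sign of the enzyme median in 8 of 8 mice, from -0.47 in mouse 21 to 1.495 in mouse 43, where 9 of 9 were higher. In mouse 29 the mean change of all 10 was 0.05, and the other 9 were close to evenly split, with 4 of 9 higher and a median of -0.12. In the second biopsy of mouse 29 these 9 markers lay above their mean by 0.44 while the enzymes lay below theirs (-0.41). The part of sebaceous glands in the enzymes' changes was not tested.

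**Figure D5:**
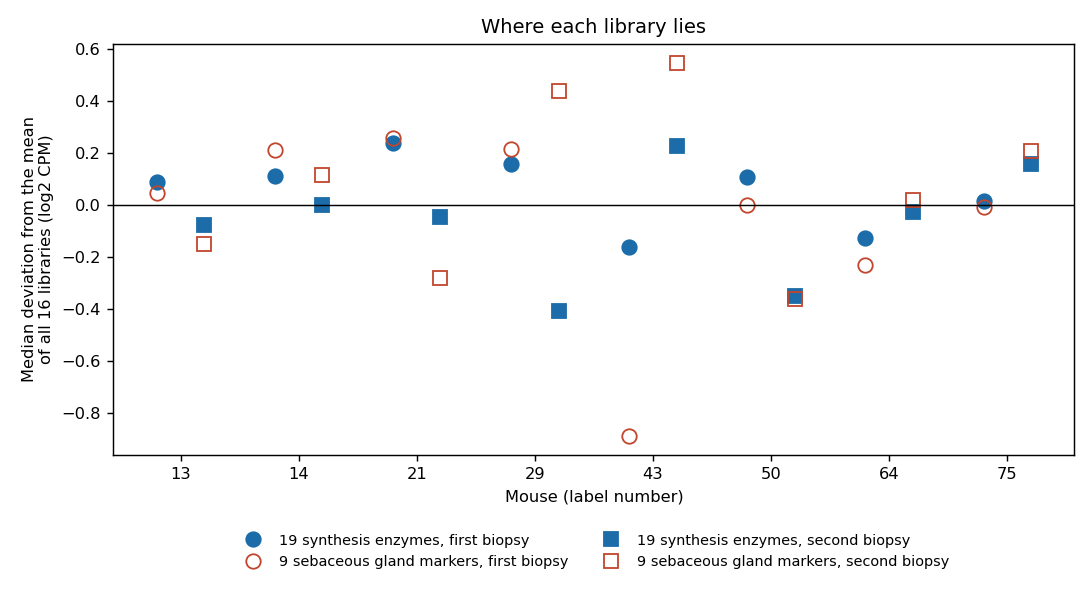
Median deviation of the 19 enzymes (filled) and of 9 sebaceous gland markers (open) from the mean of all 16 libraries, in log2 CPM, for the first (circles) and second (squares) biopsy of each mouse. The enzymes are lowest in the second biopsies of mice 29 (-0.41) and 50 (-0.35), and the markers are lowest in the first biopsy of mouse 43 (-0.89).

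Markers of other cells also differed between the libraries concerned. The 8 fat cell markers summed to 219.8 to 494 CPM in the first and 184 to 1149 CPM in the second biopsies, higher in 7 of 8 mice, with Plin4 higher at an unadjusted p below 0.05 in edgeR. The highest value was the second biopsy of mouse 29 and the exception was mouse 43, which went from 494 to 184 CPM. The fat cell sum thus went against the enzyme median in all mice but 64 and 75. The 8 skeletal muscle markers went from 9732 to 1163 CPM in mouse 43 and were higher at the second biopsy in 6 of 8 mice. In mouse 50 the 8 macrophage markers went from 604 to 1917 CPM and the 6 fibroblast markers from 3901 to 13990 CPM. Of the 8 mice, 6 had a higher sum of macrophage markers and 2 a higher sum of fibroblast markers at the second biopsy. The 8 differentiated markers went from 39520 to 21910 CPM in mouse 29, from 35170 to 22890 CPM in mouse 50 and from 32390 to 35850 CPM in mouse 43. Their sum had the sign of the enzyme median in all mice but mouse 64. The sum rests on a few abundant keratins, and the mean change per marker was -0.22, -0.03 and -0.05 on the log2 scale in mice 29, 50 and 43. That mean had the sign opposite to the enzyme median in mice 14, 21, 43 and 64. Krt1 was higher in 8 of 8 mice and Krt10 lower in 6 of 8, both at an unadjusted p below 0.05 in edgeR. The 7 basal markers went from 14350 to 10560, from 14160 to 8769 and from 11700 to 13130 CPM in mice 29, 50 and 43, but against the enzyme median in mice 13, 21, 64 and 75, and Trp63 was lower at an unadjusted p below 0.05 in edgeR. The 6 cartilage markers summed to 91.1 to 168 CPM at first and 79.3 to 119 CPM later, lower in 6 of 8 mice, mouse 43 included, with Col2a1, Col9a1 and Comp lower at an unadjusted p below 0.05 in edgeR. The 6 hair follicle markers went from 34.7 to 11.4 CPM in mouse 29 and from 8.19 to 44.25 CPM in mouse 43. In mouse 50 they went from 20.2 to 27.3 CPM, and their sum was higher in 3 of 8 mice. All 6 had a fitted difference below 0, and none reached an unadjusted p below 0.05 in edgeR. None of these lists had a marker at 0 in all libraries, although Flg and Matn1 averaged under 0.1 CPM. The part of these cells in the members' changes was not tested.

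Other genes of the pathway were read from the same fit, and none of these 5 lists held a gene past the edgeR adjusted p of 0.05. Of 10 further genes of SREBP processing and sterol sensing, 1 was lower at an unadjusted p below 0.05, Erlin2, whose product helps degrade sterol-regulated enzymes, at 94.7 ± 7.95 CPM and then 82.9 ± 7.49 CPM (edgeR adjusted p = 0.373). The list's median log2 difference was -0.03. The 12 fatty acid synthesis genes under SREBP1 had none at that level, a median of -0.10 and 9 of 12 below 0. In mice 29 and 43 their median changes were -0.52 and 0.47, the same directions as the sterol enzymes, while in mouse 13 they were higher (0.08) and in mouse 64 lower (-0.05).

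The 6 LXR target genes had a median log2 difference of 0.14, with 5 of 6 above 0. Apoe, the apolipoprotein that carries cholesterol out of macrophages, was the 1 gene higher at an unadjusted p below 0.05, at 1481 ± 126 CPM and then 1730 ± 208 CPM (SD, n = 8; edgeR adjusted p = 0.366), higher in 7 of 8 mice. Of 14 genes of uptake, transport and ester turnover, only the esterification gene Soat2 was below that level, at 0.917 ± 0.176 CPM and then 1.66 ± 0.990 CPM (edgeR adjusted p = 0.302). The list's median was 0.09. As for Nr1h3, the second biopsies spread further than the first in Soat2.

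Genes that use the isoprenoid products gave the smallest p of the 5 lists. Pggt1b, a subunit of the enzyme that attaches geranylgeranyl units to proteins, was 18.4 ± 1.94 CPM at first and 14.2 ± 2.65 CPM later, lower in 8 of 8 mice (log2 fold change -0.39 ± 0.08, edgeR adjusted p = 0.208). Icmt, which methylates prenylated proteins, was 100.6 ± 5.53 and 89.1 ± 9.99 CPM, lower in 7 of 8 mice. Pdss1, a subunit of the synthase for the ubiquinone tail, was higher in 7 of 8 mice at 9.44 ± 0.964 and 12.4 ± 2.88 CPM. The list's median was -0.02, with 5 of 12 genes above 0.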

How the data were processed

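Total RNA of 16 ear skin biopsies was sequenced from TruSeq RNA v2 libraries. Per the submitters' processing notes, CASAVA 1.8.4, TopHat2 2.1.0 and HTSeq 0.6.1p1 were used with mm10, and the strand setting is not given in the sources used here. The values the authors deposited are raw counts of reads per gene, not normalised. The 5 summary lines (18.7% to 21.1% of a library) were left out. Symbols, positions and exon lengths came from GENCODE M21 (GRCm38, 45143 of 45706 identifiers), and promoter windows from RefSeq GRCm38.p6. The symbols of all 29 members matched.

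Counts were fitted in R 4.3.3 with edgeR 4.0.16 (TMM, filterByExpr, quasi-likelihood test, terms for mouse and biopsy) over 21526 genes, with Benjamini-Hochberg adjustment and a threshold of 0.05. The numbers pair libraries of the same animal. The deviations from the biopsy means had a median correlation of -0.02 within a mouse and of -0.01 between mice. CPM and RPKM were computed here from TMM library sizes, and changes within mice from log2 CPM with a prior count of 2. The exact sign-flip permutation test is two-sided over 256 patterns. The fit was tested on counts simulated for 21281 genes, with 8 false calls. Alternatives were no replicate block, DESeq2 1.42.0 with its size factors and test, no filter, change per month and each mouse left out. The fit on 5 mice was added after seeing the data.

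The members and lists were chosen with earlier results of these data known. All members are reported, with library ranges for the 6 smallest p and for Srebf1, Srebf2, Insig1, Insig2, Sqle and Hmgcs1. Of the other pathway lists, genes at an unadjusted p below 0.05 are named. Further values of members and the marker lists shown were picked after seeing them. Tables and figures were made in Python 3.11.15 with pandas 2.3.3 and matplotlib 3.10.9.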

Additional observations from a re-analysis of the deposited data

Results flagged for a closer look

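In the second biopsies Ggps1 was 24.15 CPM in mouse 64, further from the other 7 values (next highest 21.7 CPM) than Dixon's limit for 8 samples allows. It was 1 of 87 sets of 8 values examined, of which about 4.35 would pass by chance. The first biopsy of mouse 64 was not set apart in this gene.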

How the results depend on the processing

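No member passed an adjusted p of 0.05 in the main analysis or in the 13 other fits with a test. The change per month was read for its sign only. The number of all genes called was 0 in the main analysis, 3 without the replicate block (the mouse term that pairs the biopsies), 240 by the DESeq2 test and 21 in the 5 mice other than 29, 43 and 50. The number of members lower at an unadjusted p below 0.05 was 2, and 1 without the replicate block, 1 with DESeq2 size factors, 0 in the 5 mice and 0 to 4 on leaving out single mice. The number higher was 1, and 0 in the 5 mice. The replicate block changed no other call. All genes at that level split into 1047 higher and 1546 lower, but into 1927 and 1845 without mouse 43, 1237 and 1211 without mouse 13, 1708 and 1633 without the block, and 1930 and 1826 in the 5 mice. The causes were not tested.

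Of the members, 16 kept one sign under all alternatives. On leaving out single mice, 12 turned sign, all with small differences, over ranges of log2 fold change of -0.216 to 0.038 for Acat2, -0.115 to 0.030 for Hmgcs1, -0.156 to 0.014 for Mvd, -0.062 to 0.041 for Ggps1, -0.016 to 0.119 for Fdft1, -0.251 to 0.023 for Hsd17b7, -0.097 to 0.000 for Ebp, -0.109 to 0.000 for Srebf2, -0.041 to 0.022 for Scap, -0.005 to 0.087 for Insig2, -0.049 to 0.069 for Mylip and -0.075 to 0.223 for Soat1. In the 5 mice Mvd was 0.026, Fdps 0.06 and Mylip -0.085. Replacing the age step by change per month turned no sign, but with intervals of 5.0 to 6.3 months it could hardly have done so. With 8 mice the SE of a member's log2 fold change was 0.05 to 0.20, which limits what could be resolved, and depth was lowest for Nr1h3 (108 to 380 reads).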
